A study of Mus musculus with 8 samples.

Results

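The proteasome genes described here are the 46 protein-coding mouse genes, of 54838 genes counted, whose symbol is Psma, Psmb, Psmc, Psmd, Psme, Psmf or Psmg followed by a number, with Psmb8 and Psmb9 left out by that rule. They hold 8 Psma genes, 9 Psmb genes, 6 Psmc genes, 14 Psmd genes, 4 Psme genes, Psmf1 and 4 Psmg genes. Their RNA was sequenced in bulk from 8 liver pieces of male wild type C57BL/6J mice. All 8 pieces, tumour and non-tumour alike, came from animals injected intraperitoneally with the liver carcinogen diethylnitrosamine (DEN) at day 15 and then kept on a high-fat diet with SW, which the labels do not expand, to a 30-week time point. Whether the 30 weeks run from the start of the diet or from the injection differs between the labels, and the exact age is not known. No piece came from an untreated animal or another diet. Tumours 1 to 4 made up the tumour group and pieces 1 to 4 the non-tumour group, with no statement of which mouse each piece came from. A p-value here therefore reflects the spread of these pieces, which may be technical.

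The proteasome is the large protease that degrades proteins marked with ubiquitin. Its barrel-shaped 20S core has outer rings of alpha subunits, which gate the entrance, and inner rings of beta subunits, of which Psmb5, Psmb6 and Psmb7 carry the standard catalytic sites. A 19S regulatory particle binds the end of the core. Its ATPases, encoded by the Psmc genes, unfold the substrate. Most of the Psmd genes encode its other subunits, among them the ubiquitin receptor Psmd4 and the deubiquitinase Psmd14, which removes ubiquitin. Psme genes encode other activators that can take the place of the 19S particle, Psmf1 encodes a regulator of the core, and the Psmg genes with Psmd5, Psmd9 and Psmd10 encode chaperones that help the assembly. In the liver, as in other tissues, the subunit genes are expressed in all cells, interferon raises an induced set of catalytic subunits and activators, and the transcription factor Nfe2l1 raises the whole set when proteasome activity falls.

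The libraries held 15446690 to 21977052 counts, of which these genes took 0.293% to 0.317%. Some libraries of a group were nearly the same. In 4 pairs (tumour 2 with tumour 4, and non-tumour 2, 3 and 4 with each other) the chi-square of the gene counts per degree of freedom, which is 1 for counting noise alone, was 1.58 to 3.28, against 71.7 to 165 in the other 24 pairs. Over the proteasome genes alone it was 0.923 to 3.02 in those 4 pairs and 6.199 to 46.7 in the others. These libraries were therefore counted once, which leaves 5 profiles: tumour 1, tumour 2/4, tumour 3, non-tumour 1 and non-tumour 2/3/4, with n = 3 and n = 2. With 3 profiles against 2, an exact permutation test of a single value cannot go below p = 0.2. Levels are given as CPM, read counts relative to the library size after its TMM scaling. The defining hepatocyte genes Alb, Apoa1, Ttr, Hnf4a, Cps1 and Serpina1c together summed to 94111 to 168125 CPM in each profile, and none of them was at 0. Profiles differed in markers of other cells. The 11 Kupffer cell markers summed to 852 CPM in non-tumour 1, which was the highest for 11 of 11, and to 273 to 347 CPM elsewhere, and the 6 endothelial markers to 263 CPM there and 112 to 158 CPM elsewhere. The 6 stellate cell markers summed to 196 to 234 CPM, the 6 cholangiocyte markers to 214 CPM in tumour 1, 107 CPM in tumour 2/4 and 22.4 to 32.3 CPM elsewhere, of which Spp1 alone made 204 CPM in tumour 1, 100.4 CPM in tumour 2/4 and 19.3 to 27.9 CPM elsewhere, and the 6 proliferation genes to 56.6 CPM in tumour 1, 22.1 CPM in tumour 3 and 30.8 to 40.6 CPM elsewhere. No gene of these lists passed the adjusted test between the groups. This says little about the markers, since 0% of all 13650 genes tested passed. The part of these marker differences in the results below was not tested.

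Upstream sequences of genes that move together, or apart, are shown first because the values below turn on such groups. Of the 46 symbols, 38 had an entry in the RefSeq promoter table (GRCm38.p6), with 41 promoters that reach from 250 bases before to 50 bases after the start. The 250 bases before the start are printed 5′ to 3′ in the direction of the gene, with motif matches on either strand in capitals. Psmb6 (chr11:70525107-70525356, plus strand) stands for the catalytic subunits, Psmd4 (chr3:95042615-95042864, minus strand) for a 19S gene that followed the core, and Psmd11 (chr11:80428365-80428614, plus strand) for a 19S gene that did not. No annotated exon lies within these 3 windows.
Psmb6: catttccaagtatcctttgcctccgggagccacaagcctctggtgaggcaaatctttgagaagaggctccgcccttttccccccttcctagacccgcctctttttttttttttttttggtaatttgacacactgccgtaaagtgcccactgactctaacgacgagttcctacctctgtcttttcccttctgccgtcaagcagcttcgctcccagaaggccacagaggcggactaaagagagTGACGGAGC
Psmd4: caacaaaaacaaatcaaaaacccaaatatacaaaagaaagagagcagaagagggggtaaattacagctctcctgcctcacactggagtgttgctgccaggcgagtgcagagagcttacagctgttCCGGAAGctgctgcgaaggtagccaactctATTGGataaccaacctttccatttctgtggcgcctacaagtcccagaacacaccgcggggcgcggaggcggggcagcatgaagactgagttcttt
Psmd11: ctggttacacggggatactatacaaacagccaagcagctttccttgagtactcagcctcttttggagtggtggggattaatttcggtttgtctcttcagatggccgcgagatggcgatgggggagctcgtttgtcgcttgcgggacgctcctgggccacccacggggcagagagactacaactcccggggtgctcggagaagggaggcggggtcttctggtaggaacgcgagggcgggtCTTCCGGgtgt
The Psmb6 window ends in a match to TGACNNNGC, the core of the element bound by Nfe2l1 and Nfe2l2. In Psmd4 the capitals mark CCGGAAG, a sequence bound by ETS factors, and the reverse complement of CCAAT, a sequence bound by NF-Y, and in Psmd11 they mark the reverse complement of CCGGAAG.

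Over all 41 promoters, searched on both strands, TGACNNNGC was present in 6 (14.6%), those of Psmb5, Psmb6, Psmc6, Psmd9, Psmd12 and Psme4, against 14.04% of the 13320 promoters of genes tested and 12.4% of all 32851. The related TGAGNNNGC was present in 13 (31.7%), against 19.3% and 17.6%. CCAAT occurred in 13 (31.7%), against 37.6% and 37.4%. CCGGAAG occurred in 15 (36.6%), against 16.6% and 8.86%. Hits of different motifs did not overlap each other in these promoters. A match describes these letters only and is no evidence of binding.

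**Figure D1:**
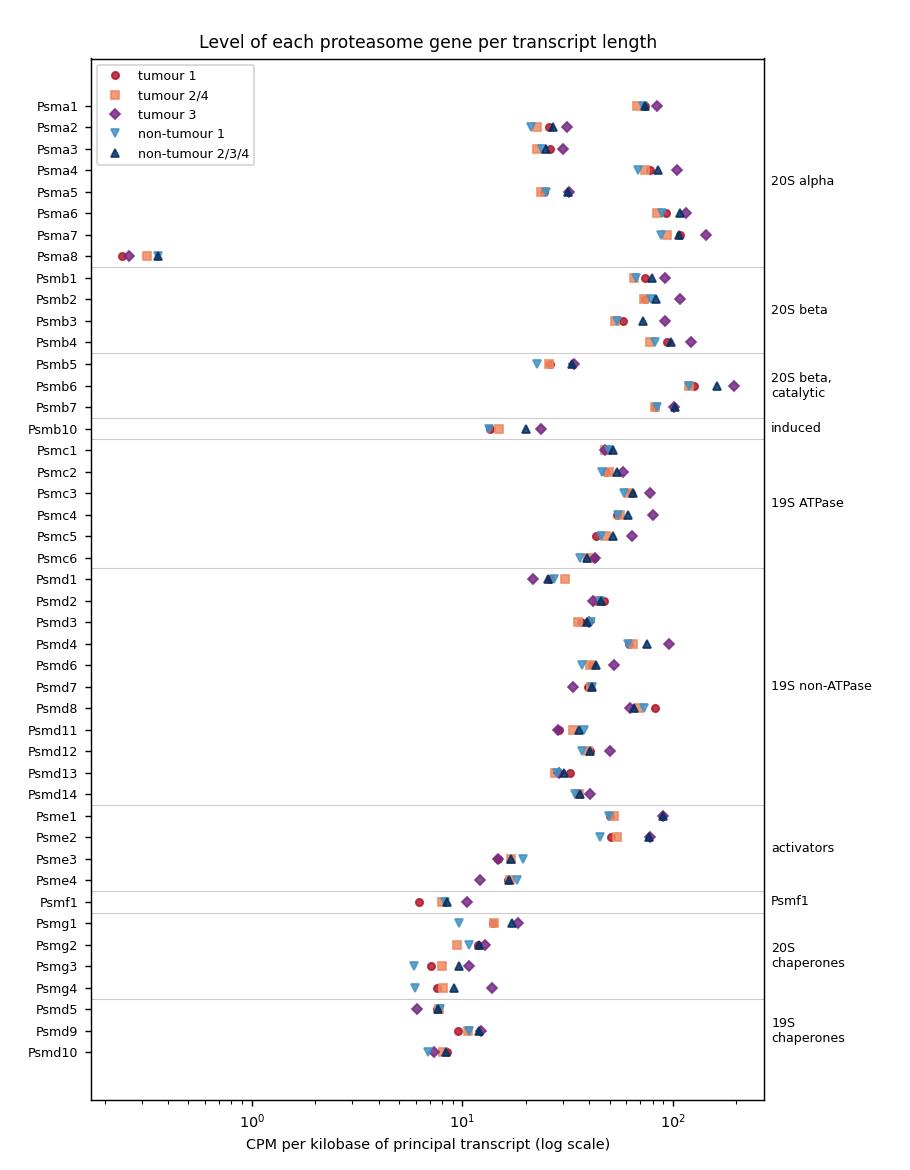
Level of each proteasome gene in CPM per kilobase of its principal transcript (log scale), 1 symbol for each of the 5 profiles, near-identical libraries averaged, genes ordered by role. The ratio of the highest to the lowest profile runs from 1.10 for Psmc1 to 2.32 for Psmg4, Psmb6 was the highest at a mean of 144, and Psma8 lies far below the others. Psmb11, with 0 reads, is not drawn.

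All the ordinary subunits of the core and of the 19S particle were expressed in every library. Psmb11, the catalytic subunit of the thymus, had 0 reads in all 8 libraries, which by counting error alone allows a level of up to 0.137 CPM (tumour 1) or 0.194 CPM (non-tumour 3). Psma8, an alpha subunit of male germ cells that takes the place of Psma7, was near that floor, with 0.407, 0.539, 0.443 and 0.541 CPM in tumours 1 to 4 and 0.604, 0.643, 0.479 and 0.688 CPM in non-tumour 1 to 4. The tumour profiles were all below the non-tumour profiles for Psma8, from 7 to 12 counts per library, with a log2 fold change of -0.37 (SE 0.43). The other 44 genes spanned 2.52 to 82.6 CPM per kilobase of merged exons.

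Levels of different genes are compared per kilobase. Per kilobase of all annotated exons, the highest were Psma6 with 82.6, Psmb6 with 61.5 and Psmb2 with 59.4 CPM, and the lowest were Psma8 with 0.208, the core chaperone gene Psmg3 with 2.52 and the 19S chaperone gene Psmd9 with 3.95 CPM. Per kilobase of the principal transcript, the highest were Psmb6 with 144, Psma7 with 108 and Psma6 with 97.8 CPM, and the lowest after Psma8 was the 19S chaperone gene Psmd5 with 7.38 CPM. The order thus depends on the length taken: 17 of 45 genes moved by 5 or more ranks between these scales, with a rank correlation of 0.892 across the 45 genes. On the principal transcript scale the medians were 75.4 CPM per kilobase for the core, 50.8 for the 19S ATPases, 39.3 for the other 19S subunits, 16.6 for the activators with Psmf1 and 8.94 for the assembly chaperones, so the chaperone genes stood several-fold below the subunits they help to assemble.

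The comparison of tumour with non-tumour liver found no proteasome gene past the test, and group means lay close together beside the spread between profiles. All 46 genes together reached 3076 ± 341 CPM in tumour (SD, n = 3) and 3018 ± 259 CPM in non-tumour liver (SD, n = 2). In the fit over all genes with edgeR's quasi-likelihood test, which 45 of the 46 genes entered (all but Psmb11), 0 of 45 passed a Benjamini-Hochberg adjusted p of 0.05, and the smallest adjusted p was 0.995. This count says little about the proteasome genes by itself, since 0% of the 13650 genes tested passed. At an unadjusted p under 0.05 it was 0 of 45, against 3.3% of all genes tested, and the smallest p was 0.148, for Psmd11. DESeq2 on the same profiles called 2 genes (0.0147%) and none of these.

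The log2 fold change, tumour minus non-tumour, was positive for 28 of the 45 genes and negative for 17, with a median of 0.05 against 0.01 over all genes tested. It ran from -0.37 for Psma8 to 0.36 for the core chaperone gene Psmg4. By role the medians were 0.07 for the alpha subunits, 0.06 for the beta subunits other than Psmb10, 0.11 for the ATPases, 0.02 for the other 19S subunits, 0.16 for the Psmg chaperones, -0.08 for the 19S chaperones and -0.13 for the activators with Psmf1. The 5 activator and Psmf1 values were all negative and the 4 Psmg values all positive, none past the test. The direction of the overall median rested on single profiles: it was -0.07 without tumour 3, with 13 of 45 genes positive, and -0.08 without non-tumour 1, with 13 of 45 positive.

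**Figure D2:**
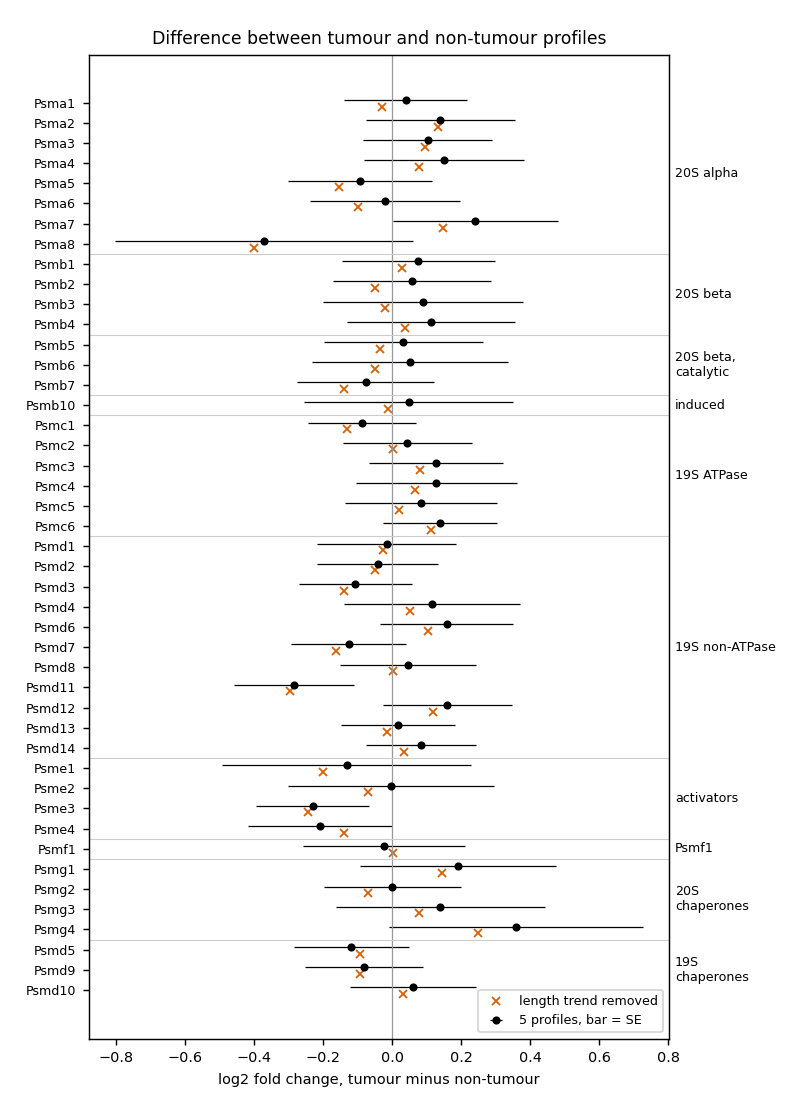
Log2 fold change of each tested proteasome gene, tumour minus non-tumour, with its standard error (black, 3 against 2 profiles), and the value after the transcript length trend of all genes was removed (orange crosses). Values lie between -0.37 for Psma8 and 0.36 for Psmg4, and no gene passed the test.

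In 1 of the 45 genes all tumour profiles lay above all non-tumour profiles, against 9.7% of all genes tested, and in 4 they all lay below, against 8.64%. The gene above was Psmc6 (chromosome 14, 45329788 to 45349705, plus strand), an ATPase of the 19S base, with 94.5, 86.7, 94.8 and 89.3 CPM in tumours 1 to 4 and 80.7, 86.8, 86.1 and 87.7 CPM in non-tumour 1 to 4. By single library the groups met, since tumour 2 lay just below non-tumour 2 and 4, and the log2 fold change was 0.14 (SE 0.16, adjusted p = 0.995 by edgeR). The 4 below were Psmd11, Psma8, Psmd7 and Psmc1, in order of p. By single library the groups met for Psmd7, with tumour 4 at 66.1 CPM, above non-tumour 1 (65.2), 3 (64.9) and 4 (65.6). They also met for Psma8, where non-tumour 3 lay below tumours 2 and 4. Psmd11 (chromosome 11, 80428615 to 80473248, plus strand), a subunit of the 19S lid, had 81.6, 97.3, 81.04 and 93.4 CPM in tumours 1 to 4 and 108, 102, 97.8 and 104 CPM in non-tumour 1 to 4. Tumours 1 and 3 were the lowest, tumour 2 came within 1 CPM of non-tumour 3, and the log2 fold change was -0.29 (SE 0.17, adjusted p = 0.995 by edgeR). Psmd7, the lid partner of the deubiquitinase Psmd14, was at 60.001 ± 5.95 CPM in tumour (SD, n = 3) and 65.4 ± 0.250 CPM in non-tumour liver (SD, n = 2), and the ATPase gene Psmc1 at 76.4 ± 1.42 CPM in tumour (SD, n = 3) and 81.1 ± 2.32 CPM in non-tumour liver (SD, n = 2). Psmc1 was also the steadiest of all 45 genes, with a ratio of only 1.10 between its highest and lowest profile.

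The proteasome genes shared an order over the profiles that did not follow the labels. Tumour 3 was the highest of the 5 profiles in 30 of 45 proteasome genes (66.7%, against 29.8% of all genes tested), and non-tumour 1 was the lowest in 19 (42.2%, against 19.6%). Tumour 2/4 was the lowest in 13 (28.9%, against 12.2%) and non-tumour 2/3/4 in 0 (against 17.3%). Measured as the deviation of log2 CPM from the mean of the 5 profiles, the median over the 45 genes was 0.26 in tumour 3 and 0.08 in non-tumour 2/3/4. It was -0.06 in tumour 1, -0.09 in tumour 2/4 and -0.14 in non-tumour 1. Over all genes tested each profile's median lay between -0.02 and 0.01. Over the 7170 tested genes with a mean of 10 CPM or more it was 0.05 in non-tumour 2/3/4, close to the 0.08 of the proteasome genes, and -0.03 to 0.01 in the other profiles. Non-tumour 2/3/4 was the lowest profile in 11.4% of those 7170 genes. The high and the low profiles of the proteasome genes thus held both labels. Profiles are single samples here, and differences between them have no replicate check other than the near-identical libraries, which may be repeats of the same RNA.

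**Figure D3:**
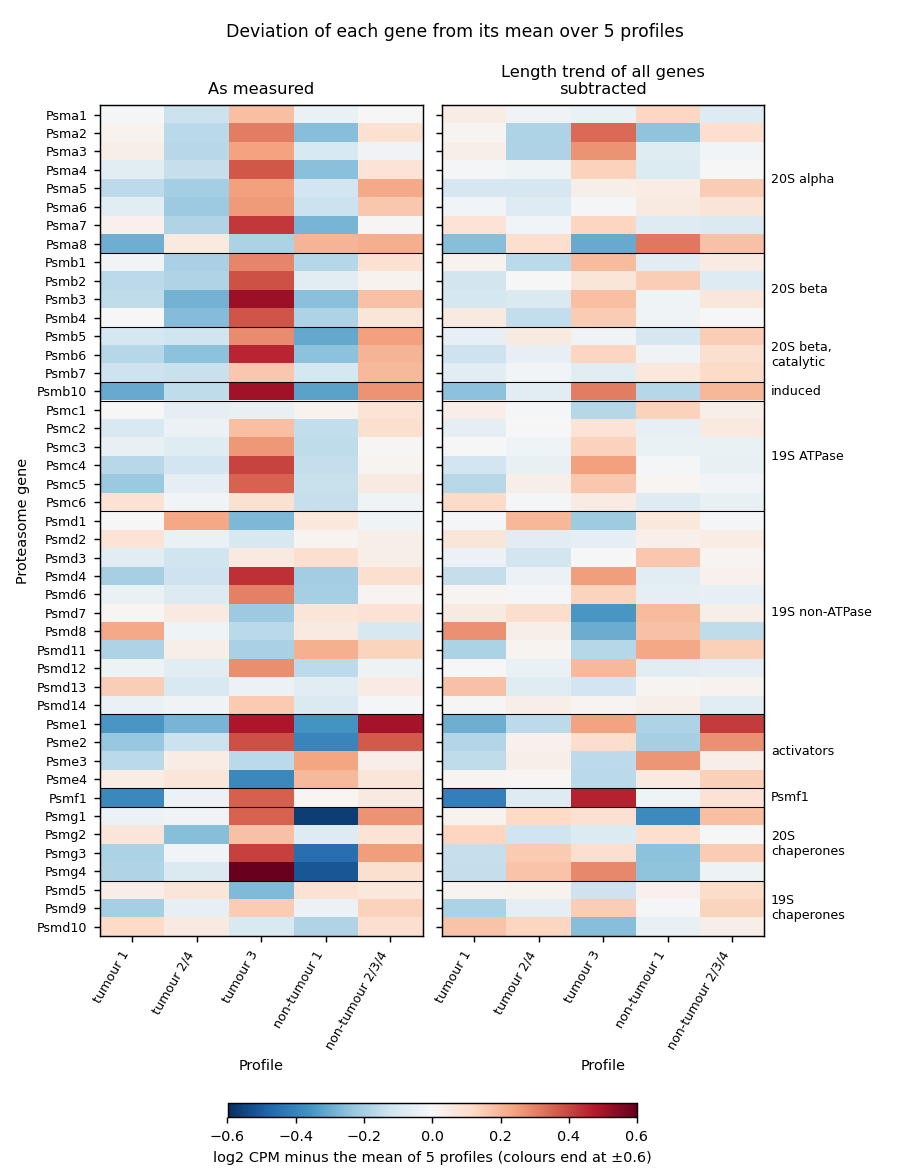
Deviation of log2 CPM of the 45 tested proteasome genes from the mean of the 5 profiles, as measured (left) and after the transcript length trend of all genes was subtracted (right), red above and blue below the mean, colours ending at 0.6. On the left tumour 3 is red in 33 of 45 genes, non-tumour 2/3/4 in 39 and non-tumour 1 in 12, and the median in tumour 3 goes from 0.26 on the left to 0.08 on the right.

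Most core genes had tumour 3 at the top. With Psmb10 set apart, it was the highest profile in 13 of the 15 tested core genes, all but Psma8 and Psmb7, and tumour 2/4 the lowest in 9 of 15. Psmb6, the caspase-like catalytic subunit, had 100.3, 92.3, 155 and 98.8 CPM in tumours 1 to 4 and 95.4, 141, 117 and 129.6 CPM in non-tumour 1 to 4. The chymotrypsin-like Psmb5 had 23.4, 21.3, 30.6 and 25.2 CPM in tumours 1 to 4 and 20.3, 30.1, 27.5 and 31.4 CPM in non-tumour 1 to 4. The trypsin-like Psmb7 had 95.7, 92.7, 117 and 97.8 CPM in tumours 1 to 4 and 96.96, 119.5, 113 and 123 CPM in non-tumour 1 to 4. In all 3, tumour 3 and non-tumour 2, 3 and 4 lay above tumours 1, 2 and 4 and non-tumour 1, so the groups overlapped. Means were 117 ± 33.1 CPM in tumour (SD, n = 3) and 112 ± 23.8 CPM in non-tumour liver (SD, n = 2) for Psmb6, 25.7 ± 4.21 CPM in tumour (SD, n = 3) and 25 ± 6.60 CPM in non-tumour liver (SD, n = 2) for Psmb5 and 103 ± 12.3 CPM in tumour (SD, n = 3) and 108 ± 15.4 CPM in non-tumour liver (SD, n = 2) for Psmb7. Psma7, an alpha subunit, had 98.95, 83.9, 130.5 and 87.5 CPM in tumours 1 to 4 and 79.99, 96.01, 99.2 and 97.3 CPM in non-tumour 1 to 4, with tumour 3 alone far above the rest, and a log2 fold change of 0.24 (SE 0.24). Psma6 and Psmb2, the other genes highest per kilobase of exons, were at 101 ± 17.4 CPM in tumour (SD, n = 3) and 103 ± 14.4 CPM in non-tumour liver (SD, n = 2) and 72.7 ± 17.05 CPM in tumour (SD, n = 3) and 69.7 ± 2.75 CPM in non-tumour liver (SD, n = 2).

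The genes of the 19S particle differed among themselves. Among the 6 ATPase genes tumour 3 was the highest in 5. Among the 11 other 19S subunits it was the highest in 4 and the lowest in 5. It was the highest for Psmd4, a ubiquitin receptor, with 128 CPM against 81.5 to 100.1 CPM in the other profiles, for the lid subunits Psmd6 and Psmd12 and for the deubiquitinase Psmd14. It was the lowest for Psmd1 and Psmd2, the large scaffold subunits of the base, and for the lid subunits Psmd7, Psmd8 and Psmd11. Psmd12 had 76.6, 74.7, 95.2 and 75.4 CPM in tumours 1 to 4 and 70.4, 76.4, 76.1 and 77.3 CPM in non-tumour 1 to 4, so tumour 3 stood alone and the other 7 libraries lay within 70.4 to 77.3 CPM. Psmd2 ranged only from 124 to 139.7 CPM over the profiles, and Psmd1 from 67.5 in tumour 3 to 95.6 CPM in tumour 2/4.

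The balance of core to 19S RNA also differed between profiles. The mean level of 14 core genes (without Psma8, Psmb10 and Psmb11) per kilobase of principal transcript, divided by that of the 17 19S genes, was 1.51, 1.38, 1.80 and 1.43 in tumours 1 to 4 and 1.44, 1.67, 1.62 and 1.66 in non-tumour 1 to 4. Tumour 3 and non-tumour 2, 3 and 4 were above the other 4 libraries. The group means were 1.57 ± 0.203 in tumour (SD, n = 3) and 1.55 ± 0.148 in non-tumour liver (SD, n = 2), a difference within the spread. RNA levels do not give the amounts of assembled particles.

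**Figure D4:**
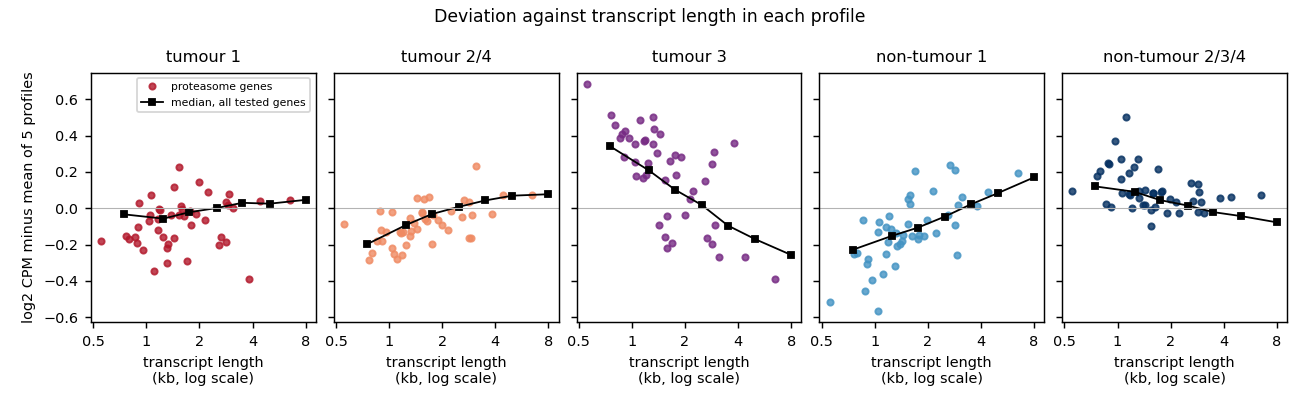
Deviation of log2 CPM from the mean of 5 profiles against principal transcript length (log scale) in each profile, with the 45 tested proteasome genes as points and the median of all tested genes per length class as black squares. In tumour 3 the black line falls from 0.34 to -0.26 and in non-tumour 1 it rises from -0.23 to 0.17, and the proteasome genes lie along both lines.

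The position of a proteasome gene went with the length of its transcript. Over all 12570 tested genes with a principal transcript length, the median deviation in tumour 3 was 0.34 for the 729 genes of up to 1000 bases and -0.26 for the 1529 genes over 6000 bases, and in non-tumour 1 it was -0.23 and 0.17. The proteasome genes are short, with a median principal transcript of 1440 bases against 2995.5 for all genes tested, and the core genes are shorter (1165 bases) than the 19S non-ATPase genes (1904 bases). Across the 45 genes, which are not independent replicates, the deviation was correlated with log2 length with Pearson's r = -0.694 in tumour 3, 0.688 in non-tumour 1, 0.573 in tumour 2/4, -0.379 in non-tumour 2/3/4 and 0.229 in tumour 1. Over all 12570 genes r was -0.244, 0.287, 0.148, -0.123 and 0.051 in the same order. Just 4 of the 45 genes are longer than 3000 bases.

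A curve of the deviation on length, fitted in each profile over all tested genes, was then subtracted. The median over the proteasome genes went from 0.26 to 0.08 in tumour 3, from -0.14 to -0.02 in non-tumour 1, from -0.09 to -0.02 in tumour 2/4 and from 0.08 to 0.04 in non-tumour 2/3/4. Over all tested genes with a mean of 10 CPM or more, the median after subtraction was 0.02 in tumour 3 and 0.06 in non-tumour 2/3/4. The median log2 fold change between the groups became -0.02, with 21 of 45 positive, and 0% of the 12570 genes in that fit passed. What gave the libraries their length trends was not tested, and the labels give no RNA quality value for any piece. The balance of core to 19S RNA compares short with longer transcripts, and the part of the trend in it was not tested.

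After the length trend was removed the deviations in tumour 3 that were largest in size were 0.46 for Psmf1, -0.35 for the lid subunit Psmd7, 0.34 for the alpha subunit Psma2, 0.31 for Psmb10, -0.30 for Psma8 and -0.30 for the lid subunit Psmd8. In non-tumour 2/3/4 the largest were 0.42 for Psme1 and 0.28 for Psme2. These genes were picked after the values were seen, and they include core, 19S and activator genes.

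Psme1 and Psme2 encode the subunits of the activator ring that interferon induces, and lie near each other on chromosome 14 (GRCm38, 55578123 to 55581529 on the plus strand and 55587441 to 55591113 on the minus strand). Psme1 had 55.7, 58.7, 99.3 and 58.2 CPM in tumours 1 to 4 and 55.2, 100.3, 101 and 98.7 CPM in non-tumour 1 to 4. Psme2 had 48.8, 51.4, 74.97 and 53.3 CPM in tumours 1 to 4 and 43.5, 74.02, 72.8 and 74.1 CPM in non-tumour 1 to 4. For both genes tumour 3 and non-tumour 2, 3 and 4 were well above tumours 1, 2 and 4 and non-tumour 1, with no library in between, and each label had libraries on both sides. Means were 71.2 ± 24.4 CPM in tumour (SD, n = 3) and 77.7 ± 31.7 CPM in non-tumour liver (SD, n = 2) for Psme1 and 58.7 ± 14.2 CPM in tumour (SD, n = 3) and 58.6 ± 21.3 CPM in non-tumour liver (SD, n = 2) for Psme2, with log2 fold changes of -0.13 (SE 0.36) and -0.00331 (SE 0.30). The ratio of Psme1 to Psme2 per kilobase of principal transcript stayed between 0.966 and 1.18 in the 5 profiles.

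Psmb10 (chromosome 8, 105935735 to 105938444, minus strand), the induced catalytic subunit that takes the place of Psmb7, followed the same order with 17.7, 19.3, 30.9 and 19.97 CPM in tumours 1 to 4 and 17.5, 27.7, 25.7 and 25.2 CPM in non-tumour 1 to 4. Its share of Psmb10 and Psmb7 together, per kilobase of principal transcript, was 14.1% in tumour 1, 15.4% in tumour 2/4, 18.98% in tumour 3, 13.7% in non-tumour 1 and 16.3% in non-tumour 2/3/4, or 16.2% ± 2.54 in tumour (SD, n = 3) and 15.0% ± 1.83 in non-tumour liver (SD, n = 2). The standard subunit thus held most of this site's RNA in every profile.

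Other interferon response genes were mixed in their order over the libraries. Of 17 such genes in a list chosen with earlier results known, 14 had a positive log2 fold change, 0 passed the adjusted test, and 3 had an unadjusted p under 0.05, against 3.3% of all genes tested. In the transcription factor gene Irf1, tumour 3 had 30.8 CPM and non-tumour 2/3/4 26.2 CPM, against 21.05 CPM in tumour 1, 23.9 CPM in tumour 2/4 and 19.03 CPM in non-tumour 1. B2m, the light chain of class I molecules, had 2375 CPM in tumour 3 and 2082 CPM in non-tumour 2/3/4, against 1589 to 1747 CPM in the other profiles. Both thus had the same profiles at the top as Psme1, but they were picked after their values were seen. Over the 17 genes the median deviation from the mean of 5 profiles was 0.15 in tumour 3, 0.05 in tumour 2/4 and 0.03 in tumour 1. It was -0.09 in non-tumour 1 and -0.25 in non-tumour 2/3/4. By this median the list was highest in tumour 3 and lowest in non-tumour 2/3/4, and Psme1 was high in both. Nlrc5, the activator of major histocompatibility class I genes, had 17.6, 14.6, 24.6 and 14.1 CPM in tumours 1 to 4 and 12.2, 11.1, 11.5 and 10.8 CPM in non-tumour 1 to 4. Tumour 3 was its highest library, but non-tumour 2, 3 and 4, which were high for Psme1, Psme2 and Psmb10, lay below every tumour library. The summed level of the 17 genes was 2417 CPM in tumour 1, 2546 in tumour 2/4, 3131 in tumour 3, 2380 in non-tumour 1 and 2702 in non-tumour 2/3/4, mostly from B2m. In bulk tissue, fewer cells of a type and less RNA per cell cannot be told apart. The 14 leukocyte markers summed to 72.9 CPM in non-tumour 1 and to 36.0 to 44.7 CPM in the other profiles, the 6 dendritic cell markers to 5.63 to 8.66 CPM with the lowest in non-tumour 2/3/4, and the 5 neutrophil markers to 1.83 to 4.93 CPM with Ly6g at 0. Leukocyte and Kupffer cell markers were thus highest in non-tumour 1, where Psme1 and Psme2 were at their lowest. The part of immune cells in these levels was not tested.

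**Figure D5:**
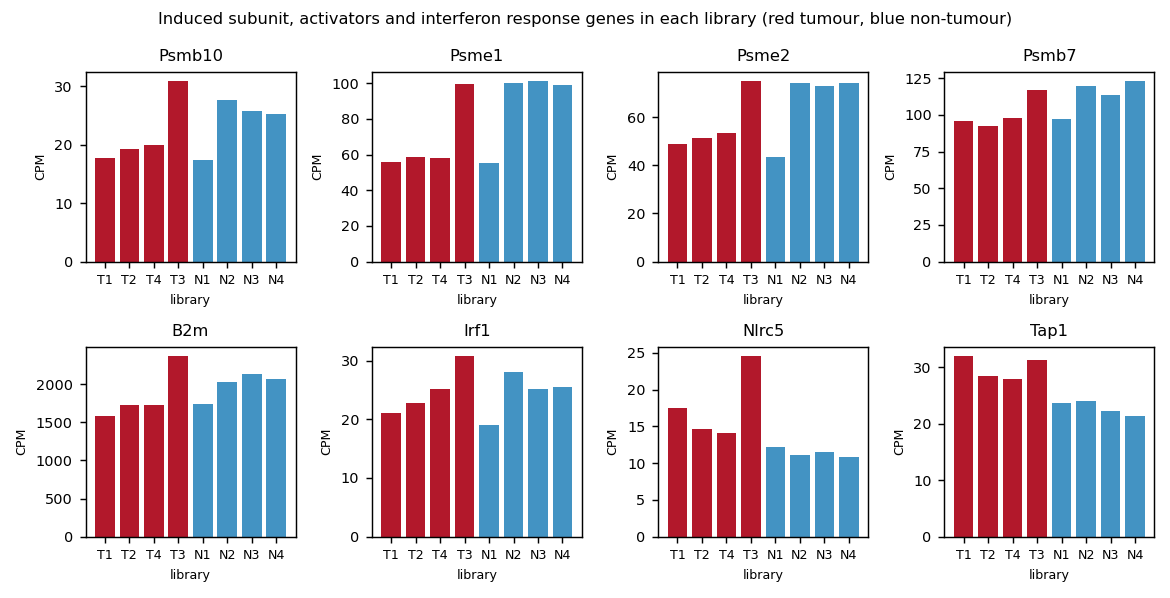
CPM in each of the 8 libraries (bars from 0, red tumour, blue non-tumour, T for tumour and N for non-tumour) for Psmb10, Psme1, Psme2, Psmb7 and 4 interferon response genes. Psme1 is near 100 CPM in tumour 3 and non-tumour 2, 3 and 4 and under 60 CPM in the other 4 libraries, while Nlrc5 is lower in non-tumour 2, 3 and 4 than in any tumour.

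The other activators and Psmf1 had orders of their own. Psme3 encodes the nuclear activator related to Psme1 and Psme2, and had 39.3, 45.9, 39.2 and 44.7 CPM in tumours 1 to 4 and 51.8, 42.3, 47.1 and 45.9 CPM in non-tumour 1 to 4. Psme4, a large nuclear activator, had 107, 107, 79.02 and 110.2 CPM in tumours 1 to 4 and 118, 109, 111 and 106 CPM in non-tumour 1 to 4. For both genes non-tumour 1 was the highest library and tumour 3, which was the highest for most core genes, the lowest. Their log2 fold changes were -0.23 (SE 0.16) and -0.21 (SE 0.21). Psme4 has the longest principal transcript of the 46 genes, at 6491 bases. Psmf1 had 23.8, 32.4, 39.95 and 28.6 CPM in tumours 1 to 4 and 31.4, 30.8, 32.3 and 33.8 CPM in non-tumour 1 to 4, with tumour 1 the lowest and tumour 3 the highest, and nearly equal means of 31.4 ± 8.11 CPM in tumour (SD, n = 3) and 31.9 ± 0.634 CPM in non-tumour liver (SD, n = 2). Its principal transcript of 3809 bases is long, and its high level in tumour 3 was opposite to the trend of long transcripts there.

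Of the 4 core chaperone genes, 3 were among the most variable of the set. The ratio of the highest to the lowest profile was 2.32 for Psmg4, 1.90 for Psmg1, 1.83 for Psmg3 and 1.35 for Psmg2. Psmg4 (chromosome 13, 34162964 to 34178173, plus strand) had 4.21, 4.41, 7.71 and 4.58 CPM in tumours 1 to 4 and 3.32, 5.79, 5.27 and 4.19 CPM in non-tumour 1 to 4. Psmg1 had 14.6, 15.5, 19.1 and 14.02 CPM in tumours 1 to 4 and 10.1, 19, 16.3 and 18.4 CPM in non-tumour 1 to 4, and Psmg3 had 6.25, 6.95, 9.48 and 7.18 CPM in tumours 1 to 4 and 5.19, 8.24, 9.03 and 8.19 CPM in non-tumour 1 to 4. In each of these, tumour 3 was the highest profile and non-tumour 1 the lowest, and the non-tumour group spanned much of the tumour range. Psmg2, the partner of Psmg1, had 12.6, 10.2, 13.5 and 9.89 CPM in tumours 1 to 4 and 11.3, 12.3, 12.9 and 12.8 CPM in non-tumour 1 to 4, a narrower range with tumour 2/4 the lowest. Psmg4 has the shortest principal transcript of all, 555 bases, and few reads (66 to 122 counts per library).

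The 19S chaperone genes were steadier. Psmd10, whose protein gankyrin is known as a liver oncoprotein, had 12.1, 11.9, 10.4 and 11.3 CPM in tumours 1 to 4 and 9.82, 12.3, 12.3 and 11.1 CPM in non-tumour 1 to 4, with means of 11.4 ± 0.849 CPM in tumour (SD, n = 3) and 10.9 ± 1.48 CPM in non-tumour liver (SD, n = 2) and a log2 fold change of 0.06 (SE 0.18). Psmd5 was at 31.4 ± 3.93 CPM in tumour (SD, n = 3) and 34.04 ± 0.483 CPM in non-tumour liver (SD, n = 2) and Psmd9 at 28.01 ± 3.45 CPM in tumour (SD, n = 3) and 29.5 ± 2.40 CPM in non-tumour liver (SD, n = 2). None of these 3 genes separated tumour from non-tumour profiles.

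The median spread of the proteasome set was somewhat below that of other genes, which were not matched to it in level. The SD of log2 CPM over the 5 profiles had a median of 0.20 for the 45 genes, 0.29 for all genes tested and 0.23 for the 7170 tested genes with a mean of 10 CPM or more. By role the median was 0.15 for the 19S particle and 0.15 for the 19S chaperones. It was 0.23 for the core without Psmb10, 0.27 for the activators with Psmf1 and 0.35 for the core chaperones, so these were no steadier than genes of 10 CPM or more. By this SD the least variable were Psmc1 (0.06) and Psmd2 (0.07), and the most variable were Psme1 (0.45), Psmg4 (0.44), Psmb10 (0.37), Psmg1 (0.36), Psme2 (0.36) and Psmg3 (0.34).

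Of 34 other genes of the pathway, chosen as regulators, assembly factors, bound enzymes, shuttle proteins and ubiquitin genes, 33 were matched and tested. Of these 0 rose or fell past the adjusted test, 15 had a positive log2 fold change and 0 had an unadjusted p under 0.05. Of all 13650 genes tested, 0% passed, 7121 had a positive log2 fold change and 3.3% had an unadjusted p under 0.05. The counts for the pathway genes thus say little about them by themselves. Nfe2l1 had 91.03, 112, 76.1 and 106 CPM in tumours 1 to 4 and 121, 102, 101 and 97.4 CPM in non-tumour 1 to 4, with means of 92.04 ± 16.5 CPM in tumour (SD, n = 3) and 110.4 ± 14.8 CPM in non-tumour liver (SD, n = 2) and the lowest value in tumour 3, where 13 of 15 core genes were highest. Nfe2l2 instead had its highest value there, with 69.7, 78.1, 94.1 and 77.1 CPM in tumours 1 to 4. In non-tumour 1 to 4 it had 63.6, 59.7, 61.1 and 59.95 CPM, and its log2 fold change was 0.37 (SE 0.19). The part of either factor in the proteasome levels was not tested. Pomp, the maturation factor of the core, had 88.4, 74.7, 117 and 82.1 CPM in tumours 1 to 4 and 78.03, 99.9, 100.2 and 93.7 CPM in non-tumour 1 to 4 and was likewise highest in tumour 3. Of the 19S subunits without a Psm symbol, Sem1 had 52.6, 42.6, 69.7 and 44.7 CPM in tumours 1 to 4 and 40.1, 55.8, 53.5 and 54.7 CPM in non-tumour 1 to 4, and the ubiquitin receptor Adrm1 36.3, 39.5, 47.2 and 35.2 CPM in tumours 1 to 4 and 38.7, 39.6, 37.97 and 37.3 CPM in non-tumour 1 to 4. Both were highest in tumour 3, as most core genes were. The deubiquitinases bound to the 19S particle, Usp14 and Uchl5, were at 41 ± 4.37 CPM in tumour (SD, n = 3) and 43.6 ± 0.178 CPM in non-tumour liver (SD, n = 2) and 17.6 ± 2.57 CPM in tumour (SD, n = 3) and 15.97 ± 2.22 CPM in non-tumour liver (SD, n = 2).

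Treating all 8 libraries as separate replicates, which counts the near-identical ones more than once, 0 of 45 proteasome genes passed, against 0.435% of 12880 genes tested, and 1 had an unadjusted p under 0.05, against 18% of all. The same fit without tumour 3 called 0 of 45, against 13.6% of 13211 genes, and 8 had an unadjusted p under 0.05, against 31% of all. There 6 of 45 log2 fold changes were positive, with a median of -0.11. The p-values of both fits are too small where libraries repeat each other, and they called no proteasome gene.

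Copies with a related symbol held few counted reads. The 5 that were looked up by symbol (Psme2b, Psmb6-ps2, Psmb7-ps2, Psmb6-ps and Psmb5-ps) held at most 24 counts in any library. That was for Psme2b, and the others had at most 2. Multi-mapping reads were not counted, so these counts cannot show how many reads shared with a copy were lost from a proteasome gene. Exons of Psmd1, Psmg3 and Psmb5 overlap those of another gene on the same strand by 301, 280 and 109 bases, so these 3 levels are less certain.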

How the data were processed

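RNA of 8 liver pieces was sequenced. Frozen tissue went through Trizol and a Qiagen column, and an Illumina mRNA kit made the libraries, per the labels' protocols. Each deposited file gives unnormalized counts of reads for 1 sample with the merged exon length of every gene. The authors used exons of Ensembl release 95 (GRCm38), per the file headers, and counted reads with featureCounts 1.6.2 and strand setting 2, leaving out multi-mapping reads. STAR 2.5.0 and Subread 1.6.2 come from the submitters' processing notes. Totals were 15446690 to 21977052 counts per library, and intervals and floors (3 counts) cover counting error only.

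Symbols and biotypes came from reference tables of GRCm38, matching 54723 and 54809 of 54838 gene IDs. Principal transcript lengths came from GENCODE M21 and promoters from RefSeq. Groups came from the labels. Libraries of a group with a chi-square per degree of freedom under 10, taken over genes that had at least 20 reads in a pair, were summed for the test and averaged for levels. The members, lists, rule for named genes, limit of 10 and alternatives were chosen with earlier results of these data known.

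Tests used edgeR 4.0.16 in R 4.3.3 (glmQLFit, robust, and glmQLFTest) with TMM scaling, filterByExpr (minimum count 10, minimum total 15) and Benjamini-Hochberg adjustment over all genes tested at 0.05. Deviations are log2 CPM with a prior count of 2 minus the mean of 5 profiles, and the length trend is a lowess curve (span 0.3) on log2 length. The tests were tried on simulated data first. Named genes are the catalytic subunits, activators, Psmf1, chaperones, Psma8, Psmb11, the 4 largest log2 fold changes each way, the 3 highest and 3 lowest levels per length, genes whose groups do not overlap, and Nfe2l1, Pomp, Adrm1, Sem1, Usp14 and Uchl5. Psma2, Psmd1, Psmd2, Psmd4, Psmd6, Psmd8, Psmd14, Irf1, Nlrc5, Tap1, B2m, Spp1 and Nfe2l2 were picked after their values were seen. Some items are not reported here. Alternatives were 3 other scalings, 2 other filters, DESeq2 1.42.0, limma 3.58.1 voom, a replicate block, library sizes without the 10 most abundant genes, 1 library per near-identical set, 8 separate libraries, and leaving out each library or set. Removing the length trend, 8 libraries without tumour 3 and the principal transcript scale were added after seeing the data.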

Additional observations from a re-analysis of the deposited data

How the results depend on the processing

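No proteasome gene passed the adjusted test under any alternative, and the smallest adjusted p of the 25 named genes in 23 settings was 0.0685, in 8 separate libraries without tumour 3. The count over all genes was 0 with the near-identical libraries counted once, 56 with 8 separate libraries, 1798 with these and without tumour 3 (added after seeing the data), 427 with no expression filter, 2 with DESeq2, and 0 to 5 when each library or near-identical set was left out, the highest without tumour 3. The cause of these changes was not tested. The labels do not say whether the replicate numbers pair the pieces. Deviations of same-numbered libraries were correlated at 0.337, -0.12, 0.259 and -0.104 for numbers 1 to 4, and these are not separate values, since libraries 2 and 4 repeat each other, so no pairing was assumed. With the replicate number as a block on 8 libraries, 72 genes and 0 proteasome genes were called, and the median log2 fold change of the proteasome genes was -0.04. That median ran from -0.11 in 8 libraries without tumour 3 to 0.17 without non-tumour 2, 3 and 4, against 0.05 in the main fit. These shifts were smaller than 0.191, the SD of the median deviations of the 3 tumour profiles. Tumour 3, at 0.26 against -0.06 and -0.09, widens that SD, so it cannot judge settings that leave tumour 3 out. Of 574 log2 fold changes of named genes under alternatives, 566 stayed within that gene's spread, 8 moved beyond it and 76 changed sign. Depth limits Psma8 most, at 7 to 12 counts per library, then Psmg4, at 66 to 122.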
